A study of Mus musculus with 14 samples.

Results

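Mature B cell and plasma cell genes were followed in bone marrow of mice with or without calorie restriction and with or without the lipase gene Pnpla2 in their marrow adipocytes. They comprise 8 genes, chosen by symbol from the 55401 genes of the count files, and all 8 had reads enough to enter the tests over 17671 genes. Ms4a1, Cd22, Fcer2a, Cr2 and Fcmr stand for the mature B cell, and Sdc1, Jchain and Tnfrsf17 for the plasma cell.

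B cells are made in the marrow from pro-B and pre-B cells, which rearrange their immunoglobulin genes, and the immature cells that result leave for the spleen and lymph nodes. Mature B cells recirculate through the marrow, and long-lived plasma cells, which secrete antibody, settle there in niches of stromal cells. Ms4a1 encodes CD20, a membrane protein of B cells that plasma cells have lost, and Cd22 encodes an inhibitory coreceptor of the B cell receptor. Fcer2a encodes CD23, the low-affinity IgE receptor of follicular B cells. Cr2 encodes the complement receptors CD21 and CD35, which B cells share with follicular dendritic cells, and Fcmr encodes the Fc receptor for IgM. Jchain encodes the chain that joins IgM and IgA into polymers. Tnfrsf17 encodes BCMA, the receptor by which plasma cells receive the survival signals APRIL and BAFF. Sdc1 encodes the proteoglycan syndecan-1, or CD138, used to sort plasma cells and also made by epithelial and stromal cells.

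The RNA came from marrow plugs of distal tibiae of male C57BL6/SJL mice, 24 weeks of age, and each of the 14 samples pooled 2 mice. BMAd-Pnpla2+/+ mice fed ad libitum (AL) gave 4 samples, BMAd-Pnpla2+/+ mice under calorie restriction (CR, 30% for 6 weeks) 4, BMAd-Pnpla2-/- AL mice 3 and BMAd-Pnpla2-/- CR mice 3. Per the study's methods, mice of both genotypes carried BMAd-Cre, in which FLPo made under Osterix turns on a Cre placed behind the Adipoq gene, and the genotypes differed in whether Pnpla2 was floxed. This Cre is aimed at bone marrow adipocytes (BMAd) and also labelled a few stromal or dendritic cells. The insertion lowers adiponectin, in the control mice too, and its Cre level is low. The whole plug was sequenced without sorting, and the share of its RNA that came from adipocytes was not measured. The labels give separate samples and say no more of their origin, and p-values measure the spread between these samples. In such bulk RNA, fewer cells of a type and less RNA per cell cannot be told apart.

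Between 18898324 and 21665553 read pairs per sample were counted on genes without regard to strand, and values are given as counts per 1000000 (CPM) after TMM scaling. The 3 BMAd-Pnpla2-/- CR libraries stand apart: 50.1% to 50.5% of their stranded gene reads lay on the first strand, against 4.30% to 4.62% in the other 11. That group therefore differs from the others in kind of library as well as in treatment, and the 2 cannot be told apart in any comparison it enters. Pnpla2 itself, the deleted gene, stood at 216 ± 57.6 CPM (SD, n = 4) in BMAd-Pnpla2+/+ AL, 828 ± 237 (n = 4) in BMAd-Pnpla2+/+ CR, 146 ± 21.4 (n = 3) in BMAd-Pnpla2-/- AL and 221 ± 44.8 (n = 3) in BMAd-Pnpla2-/- CR. With CR it was lower in BMAd-Pnpla2-/- samples by the edgeR quasi-likelihood test (log2 fold change -1.90, SE 0.26, adjusted p = 0.0386). That call was lost in 9 of 14 edgeR fits with 1 sample left out, among them those without any 1 of the 3 BMAd-Pnpla2-/- CR replicates, and with only the groups compared (adjusted p = 0.209), while the log2 fold change lay between -2.19 and -1.77 over all alternatives.

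The genes lie on 7 chromosomes (build GRCm38, GENCODE M21). Cr2 spans chr1:195136811-195176716 on the minus strand and Fcmr chr1:130865669-130880791 on the plus strand. Ms4a1 lies at chr19:11249675-11266241, Cd22 at chr7:30865402-30880342, Fcer2a at chr8:3681737-3694175 and Jchain at chr5:88519809-88527891, all on the minus strand. Sdc1 at chr12:8771323-8793715 and Tnfrsf17 at chr16:11313812-11320074 are on the plus strand. All are protein-coding, and the counts are of reads on any of their exons.

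The sequence before a start site is shown for 3 mature B cell genes, chosen by a motif in it and not by their levels. RefSeq (GRCm38.p6) gave 9 windows, from 250 bases before to 50 after a transcription start, for 7 of the 8 genes, with 3 windows for Fcer2a. Ms4a1 had no entry. The stretches printed are the 250 bases before the start in the windows that hold, there, the E-box CAGGTG, which E proteins such as E2A bind. Each is written 5′ to 3′ along the gene, with the E-box, or CACCTG where it lies on the other strand, in capitals. Cr2 is chr1:195176720-195176969, Cd22 chr7:30879029-30879278 and Fcer2a chr8:3690862-3691111, all on the minus strand. The Cd22 and Fcer2a stretches lie within the gene spans given above, so their starts are inside the annotated genes. The Fcer2a window at the 5′ end of the gene, chr8:3694125-3694424, held no E-box.
Cr2: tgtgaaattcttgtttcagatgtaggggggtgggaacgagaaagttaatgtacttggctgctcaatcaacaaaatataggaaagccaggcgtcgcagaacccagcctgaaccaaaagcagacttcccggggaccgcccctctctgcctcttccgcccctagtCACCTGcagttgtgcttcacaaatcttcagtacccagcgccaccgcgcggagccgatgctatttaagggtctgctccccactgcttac
Cd22: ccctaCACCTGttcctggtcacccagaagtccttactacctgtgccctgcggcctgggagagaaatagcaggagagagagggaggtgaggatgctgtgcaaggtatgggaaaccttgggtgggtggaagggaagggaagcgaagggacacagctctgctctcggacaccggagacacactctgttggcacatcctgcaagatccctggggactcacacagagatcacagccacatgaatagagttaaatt
Fcer2a: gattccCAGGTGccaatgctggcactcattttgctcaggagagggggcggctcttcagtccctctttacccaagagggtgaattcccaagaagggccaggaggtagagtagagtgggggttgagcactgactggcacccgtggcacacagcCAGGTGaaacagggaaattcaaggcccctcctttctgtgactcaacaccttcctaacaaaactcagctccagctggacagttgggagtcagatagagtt
With both strands searched over all 300 bases, the E-box was in 5 of the 9 windows, those of Cr2, Cd22, 1 start of Fcer2a, Fcmr and Jchain, where 20.2% of all 32851 windows hold it. The octamer ATGCAAAT was in 0 of the 9 and in 1.74% of all windows. TATAAA, the TATA box, was in 2 of 9 against 13.6%. These are matches of letters in short windows and were not tested against expression.

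Levels differed widely between the 8 genes. Per kilobase of merged exons (RPKM, all 14 samples), Jchain was at 536 ± 231 (SD), followed by Fcmr at 36.8 ± 12.1, Cd22 at 21.5 ± 7.16, Sdc1 at 16.8 ± 6.62, Fcer2a at 15.8 ± 5.65, Ms4a1 at 8.96 ± 2.95, Tnfrsf17 at 2.77 ± 0.706 and Cr2 at 2.19 ± 0.764. Jchain did not overlap with any other gene over the 14 samples. From Fcmr down, the ranges of all neighbours in this order overlapped over the 14 samples. Within samples, Fcmr was above Cd22 in 14 of 14, by 1.499 to 2.001 times, and Fcer2a above Ms4a1 and Ms4a1 above Tnfrsf17 in 13 of 14 each. Cd22 was above Sdc1 in 9 samples, Sdc1 above Fcer2a in 8 and Tnfrsf17 above Cr2 in 11, so that these neighbours changed places. Tnfrsf17 was the thinnest in reads, with 25 to 76 per sample, and Cr2 had 112 to 673. The highest sample stood between 2.76 times (Tnfrsf17) and 5.58 times (Cr2) the lowest.

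None of the 8 genes changed in any comparison by edgeR's quasi-likelihood test. CR against AL was called at an adjusted p under 0.05 for 26% of all tested genes in BMAd-Pnpla2+/+ mice and for 11.6% in BMAd-Pnpla2-/- mice, and in each for 0 of the 8. Between genotypes, 0% of all genes were called with AL and 0.0113% with CR (Pnpla2 and Ppib, a cyclophilin, named after its value was seen), and the difference of the 2 responses to CR was called for 0%, again with 0 of the 8. Over all genes, DESeq2 called 17 with AL and 42 for the difference of responses at an adjusted p under 0.05, where edgeR called 0 and 0. At an unadjusted p under 0.05, edgeR had 700 and 1836 in the same order. Among the members, an unadjusted p under 0.05 was found for 1 of the 8, Sdc1 with CR in BMAd-Pnpla2+/+ mice, and for 0 in the other 4 comparisons. That cutoff was met by 40.4% of all tested genes for CR in the control genotype. It was met by 29.1% for CR with the deletion and by 23.2% between genotypes with CR. The count of 1 in 8 thus did not exceed the share of all genes. DESeq2, run as an alternative, called Sdc1 with CR in BMAd-Pnpla2+/+ mice and 0 of the 8 in the other comparisons. The median log2 fold change of the 8 genes was 0.23 for CR in BMAd-Pnpla2+/+ mice, -0.09 for CR in BMAd-Pnpla2-/- mice, 0.04 for genotype with AL, -0.27 for genotype with CR and -0.22 for the difference of responses, where all tested genes had medians between -0.01 and 0.05. The panels of CPM by sample show how far replicates of 1 group lay apart.

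**Figure D1:**
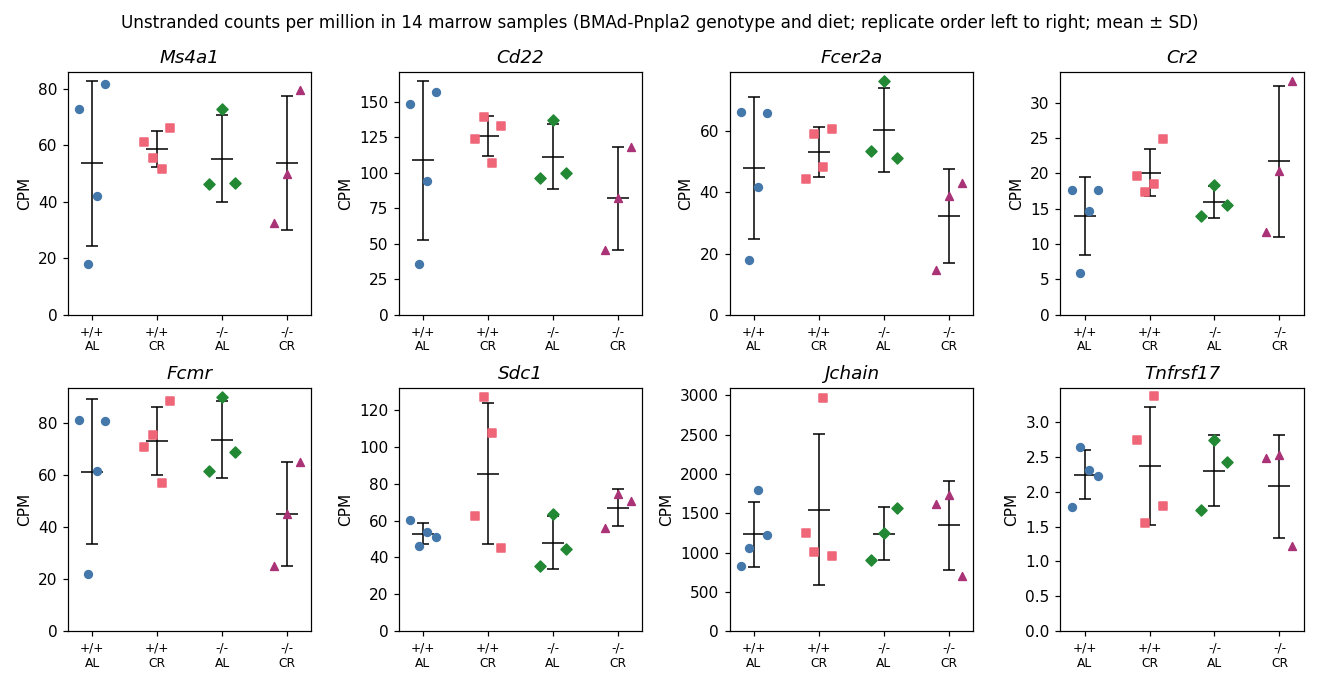
CPM of the 8 genes in each of 14 samples, by genotype and diet; points are samples in replicate order and the bar is the mean ± SD. In BMAd-Pnpla2+/+ AL, replicate 2 is lowest for all 5 mature B cell genes (Ms4a1 17.9 CPM), and in BMAd-Pnpla2+/+ CR, replicate 3 is highest for Jchain (2974 CPM).

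Ms4a1 was at nearly the same mean level in all 4 groups. In order of replicates, here and in what follows, its CPM was 72.7, 17.9, 42.2 and 81.6 with AL and 61.1, 55.5, 51.6 and 66.2 with CR in BMAd-Pnpla2+/+ mice, and 46.2, 72.9 and 46.7 with AL and 32.5, 49.7 and 79.4 with CR in BMAd-Pnpla2-/- mice. All groups overlapped, and the 4 BMAd-Pnpla2+/+ CR samples lay within the range of the AL samples. The log2 fold change with CR was 0.13 (SE 0.38, adjusted p = 0.822 by edgeR) in BMAd-Pnpla2+/+ mice, a fold of 1.09 with a 95% interval of 0.622 to 1.92. In BMAd-Pnpla2-/- mice it was -0.04 (SE 0.44, adjusted p = 0.966 by edgeR), a fold of 0.975 with an interval of 0.508 to 1.87. With the spread of these samples, folds within these intervals cannot be told apart.

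Cd22, an inhibitor of B cell receptor signals, had its highest and lowest samples in the same libraries of BMAd-Pnpla2+/+ AL as Ms4a1. Its CPM was 148, 36.1, 94.1 and 157 with AL and 124, 139, 107 and 133 with CR in BMAd-Pnpla2+/+ mice, and 96.3, 137 and 100.2 with AL and 45.7, 82.4 and 118 with CR in BMAd-Pnpla2-/- mice. The last group was lowest on average, 82.1 ± 36.2 CPM against 126 ± 14.002 in BMAd-Pnpla2+/+ CR, but the groups overlapped. The genotype difference with CR was -0.62 on the log2 scale (SE 0.40, adjusted p = 0.376 by edgeR). Part of Cd22 lies under the antisense gene Gm29439, with which it shares 479 exon bases, so that counting without strand leaves 85.6% to 89.5% of its reverse-strand reads in the 11 stranded libraries.

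Fcer2a, the IgE receptor CD23, stood lowest in BMAd-Pnpla2-/- CR samples. Its CPM was 66.2, 17.9, 41.7 and 65.9 with AL and 44.3, 59.2, 48.3 and 60.8 with CR in BMAd-Pnpla2+/+ mice, and 53.7, 76.3 and 51.2 with AL and 14.6, 38.9 and 43.0 with CR in BMAd-Pnpla2-/- mice. All 3 BMAd-Pnpla2-/- CR samples lay below every BMAd-Pnpla2-/- AL sample, as did 17.4% of all tested genes, and below every BMAd-Pnpla2+/+ CR sample, as did 8.06%. No other of the 8 genes was lower without overlap in either pair of groups. The log2 fold change with CR was -0.91 in BMAd-Pnpla2-/- mice and did not pass the threshold (SE 0.43, unadjusted p = 0.0566, adjusted p = 0.185 by edgeR), a fold of 0.533 with a 95% interval of 0.278 to 1.02. In BMAd-Pnpla2+/+ mice the value was 0.15 (SE 0.37), and the difference of the 2 responses, -1.06 (SE 0.57), had an adjusted p of 0.536 by edgeR.

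Fcmr, the IgM receptor, had its lowest mean in the same group. Its CPM was 81.1, 21.9, 61.6 and 80.9 with AL and 71.0, 75.6, 56.9 and 88.5 with CR in BMAd-Pnpla2+/+ mice, and 61.6, 90.1 and 69.0 with AL and 25.1, 45.2 and 65.1 with CR in BMAd-Pnpla2-/- mice. Replicate 3 of the last group reached into the range of both other groups it was compared with. The log2 fold change with CR was 0.25 (SE 0.35) in BMAd-Pnpla2+/+ mice and -0.70 (SE 0.41, adjusted p = 0.276 by edgeR) in BMAd-Pnpla2-/- mice, and the genotype difference with CR was -0.69 (SE 0.39, adjusted p = 0.297 by edgeR).

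Cr2, the complement receptor, had a higher mean with CR in both genotypes, 20.1 ± 3.35 against 13.98 ± 5.56 CPM in BMAd-Pnpla2+/+ mice and 21.7 ± 10.7 against 15.9 ± 2.26 in BMAd-Pnpla2-/- mice. Single samples were at 17.7, 5.91, 14.7 and 17.6 CPM with AL and 19.6, 17.3, 18.5 and 24.9 with CR in BMAd-Pnpla2+/+ mice, and 13.9, 18.4 and 15.5 with AL and 11.8, 20.4 and 33.0 with CR in BMAd-Pnpla2-/- mice. The groups overlapped, and the log2 fold changes of 0.52 (SE 0.33, adjusted p = 0.249) and 0.45 (SE 0.38, adjusted p = 0.470) did not pass edgeR's test.

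In BMAd-Pnpla2+/+ mice the sign of the response of the mature B cell genes hung on replicate 2 of the AL group, the lowest sample for all 5. Without it, the log2 fold change with CR was -0.16 for Ms4a1, -0.08 for Cd22, -0.13 for Fcer2a and -0.03 for Fcmr, while Cr2 kept a positive value of 0.27. Ms4a1 was at -0.01 without replicate 3 of that group. The 23 other mature B cell genes were low in that sample too, with a summed 968 CPM against a group median of 2406, and the 10 pro-B and pre-B cell genes with 275 against 423. T cell genes, at 150 CPM, lay within the range of that group, 123 to 211. The part of the makeup of this sample in the result was not tested.

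Jchain, the most abundant of the plasma cell genes, was set apart by a single sample. Its CPM was 832, 1057, 1801 and 1229 with AL and 1245, 1009, 2974 and 951 with CR in BMAd-Pnpla2+/+ mice, and 902, 1250.0 and 1571 with AL and 1620 (replicate 1), 1730 (replicate 2) and 698 (replicate 3) with CR in BMAd-Pnpla2-/- mice. Replicate 3 of BMAd-Pnpla2+/+ CR lay far above the rest, and without it the other 3 samples lay within the range of the AL group. The log2 fold change with CR was 0.33 (SE 0.39, adjusted p = 0.552 by edgeR) in BMAd-Pnpla2+/+ mice and -0.20 without that sample. In BMAd-Pnpla2-/- mice it was 0.12 (SE 0.45, adjusted p = 0.890 by edgeR), with a 95% interval of the fold from 0.554 to 2.13.

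Tnfrsf17, the BCMA receptor, was low in all samples and had the same highest library. Its CPM was 1.79, 2.64, 2.32 and 2.23 with AL and 2.75, 1.55, 3.38 and 1.79 with CR in BMAd-Pnpla2+/+ mice, and 1.74, 2.74 and 2.43 with AL and 2.48, 2.52 and 1.23 with CR in BMAd-Pnpla2-/- mice. Both Jchain and Tnfrsf17 were highest in replicate 3 of BMAd-Pnpla2+/+ CR and lowest in replicate 3 of BMAd-Pnpla2-/- CR. Fold changes with CR lay between 0.899 and 1.06 in the 2 genotypes, with 95% intervals from 0.541 to 1.64.

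Among the 8 genes, Sdc1 came nearest to a change. Its CPM was 60.3, 46.3, 53.8 and 51.2 with AL and 62.3, 127, 107 and 44.9 with CR in BMAd-Pnpla2+/+ mice, and 35.4, 63.6 and 44.6 with AL and 55.8, 74.5 and 70.8 with CR in BMAd-Pnpla2-/- mice. Of the BMAd-Pnpla2+/+ CR samples, 3 lay above every AL sample of that genotype and 1, replicate 4, below all of them. The log2 fold change there was 0.69 (SE 0.28, unadjusted p = 0.0258, adjusted p = 0.0784 by edgeR), a fold of 1.62 with a 95% interval of 1.07 to 2.44. DESeq2 gave 0.68 with an adjusted p of 0.0498, and edgeR without replicate 4 of that group gave 0.90 with an adjusted p of 0.0112. In BMAd-Pnpla2-/- mice the value was 0.49 (SE 0.32, adjusted p = 0.339 by edgeR), and the 2 responses differed by -0.21 (SE 0.42, adjusted p = 0.877 by edgeR).

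**Figure D2:**
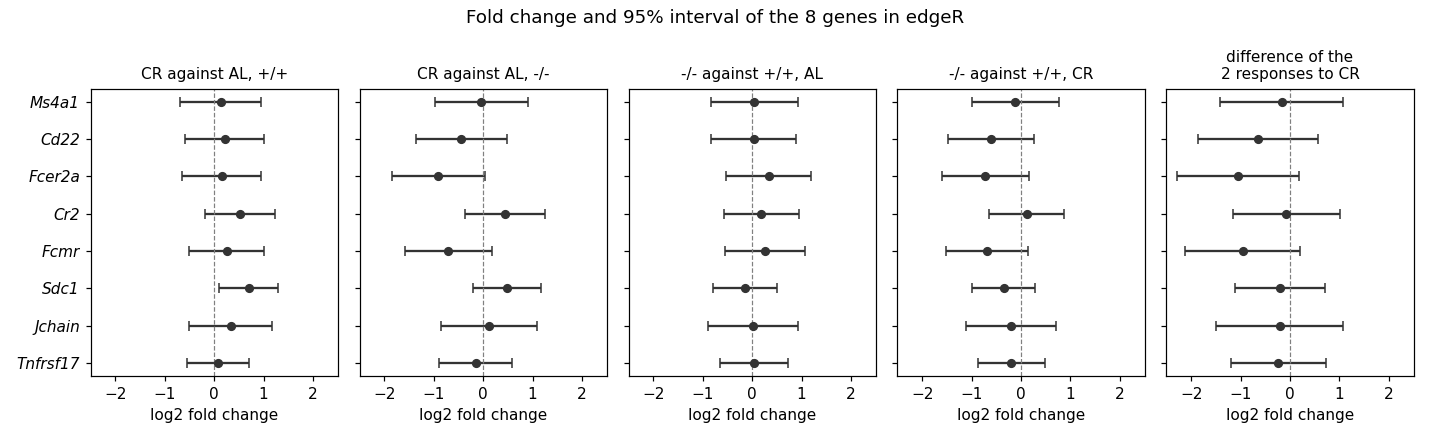
Log2 fold change (x axis) of each gene (rows) in the 5 comparisons, one panel each, with the 95% interval of edgeR's fit. The interval excludes 0 only for Sdc1 with CR in BMAd-Pnpla2+/+ mice (0.10 to 1.29), and the Fcer2a interval with CR in BMAd-Pnpla2-/- mice ends at 0.03.

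The 8 genes fell into 3 patterns across the 14 samples. Pearson's r of log2 CPM was 0.62 to 0.97 over the 10 pairs of mature B cell genes, and 0.93 to 0.98 for their deviations from the group means. Jchain and Tnfrsf17 had r of 0.81, or 0.84 within groups. Mature B cell genes against these 2 gave -0.42 to -0.16, and -0.49 to -0.26 within groups. Sdc1 had r of 0.12 to 0.32 with the mature B cell genes, 0.29 with Jchain and 0.03 with Tnfrsf17. All of these are descriptions over 14 samples that share library kind and makeup within groups.

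**Figure D3:**
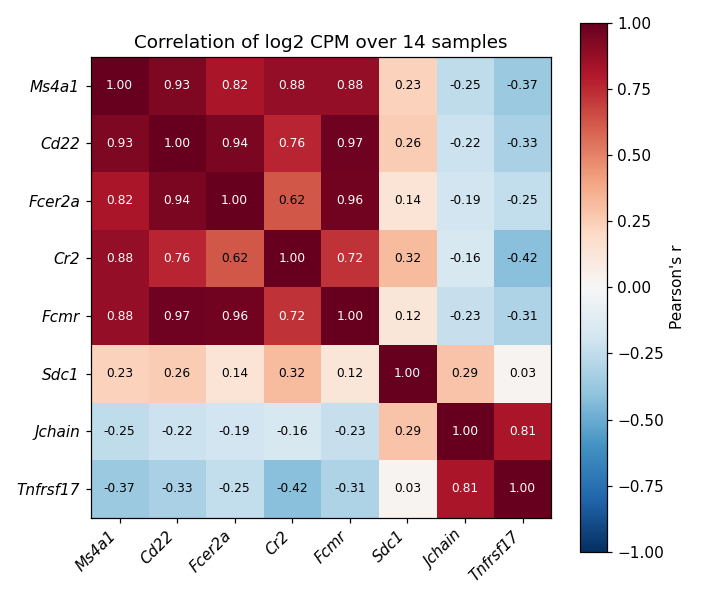
Pearson's r of log2 CPM between each pair of the 8 genes over 14 samples, as a colour and a number. The 5 mature B cell genes form 1 block (lowest r 0.62, Fcer2a with Cr2), Jchain and Tnfrsf17 another (0.81), and Sdc1 stands outside both.

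The genes most like each member, among 14942 with a mean of at least 1 CPM, drew the same lines. Ms4a1 was nearest to H2-Ob (r = 0.99), B3gnt5 (0.97) and H2-DMb2 (0.95); H2-Ob and H2-DMb2 encode chains of H2-O and H2-M, which act on peptide loading of class II molecules. Cd22 was nearest to Ighd (0.97), the IgD heavy chain of mature B cells, Srpk3 (0.97) and H2-Oa (0.97). Fcer2a was nearest to Ighd (0.92), Pxk (0.92) and Ffar1 (0.92), and Fcmr to Ighd (0.97), the follicle-homing receptor Cxcr5 (0.96) and the B cell scaffold Bank1 (0.96). Cr2 had other neighbours, the class II gene H2-Eb2 (0.93), I730030J21Rik (0.93) and Icosl (0.92), which encodes the ligand of ICOS on T cells. Jchain was nearest to Igha (0.92), the IgA heavy chain, and to the light-chain segments Igkv14-111 (0.91) and Igkv1-135 (0.87), and Tnfrsf17 to Igkv3-9 (0.79), Igkv14-111 (0.78) and Ighv1-84 (0.75). Reads of such immunoglobulin segments may be shared among near-identical copies.

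The 3 genes nearest to Sdc1 were Acvr1 (0.97), an activin receptor, Lrp1 (0.97), a large endocytic receptor, and Fkbp9 (0.96), of the endoplasmic reticulum. Over the 14 samples its log2 CPM followed the sum of 9 fibroblastic stromal cell genes (r = 0.90, Spearman's rho 0.92, 0.93 over the 12 samples left without the 2 farthest in that sum, 0.86 within groups). Against 16 other plasma cell genes the values were 0.29, 0.25, 0.35 and 0.69 in the same order. Its r was -0.86 with neutrophil genes and 0.82 with adipocyte genes. The 4 BMAd-Pnpla2+/+ CR samples ranged from 6122 CPM (replicate 4) to 13711 CPM (replicate 2) in the fibroblastic sum, and those were also their lowest and highest samples in Sdc1. Within groups Sdc1 thus had positive r with both lists, and which cells its RNA came from was not tested.

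**Figure D4:**
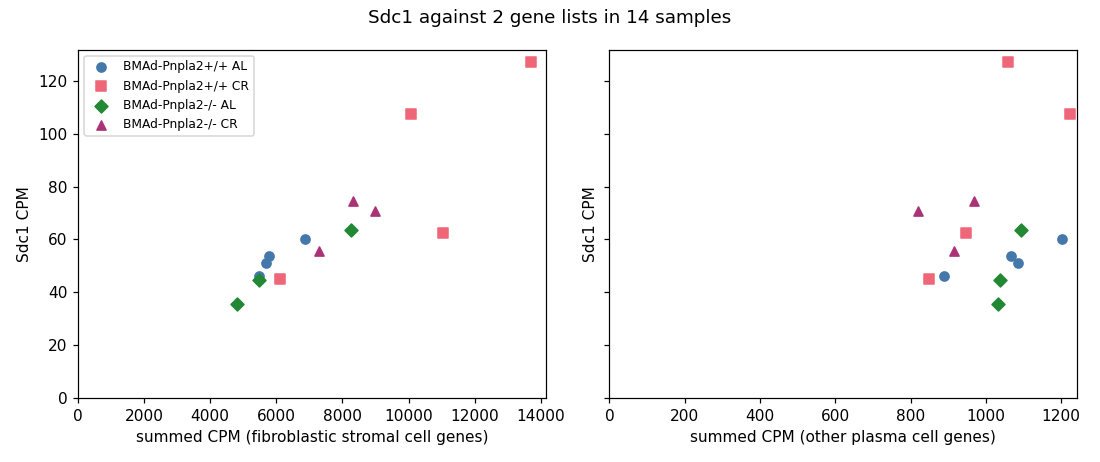
Sdc1 CPM (y axis) of 14 samples against the summed CPM of 9 fibroblastic stromal cell genes (left) and 16 other plasma cell genes (right), both axes linear from 0. On the left the samples lie along a line (r = 0.90 on the log2 scale, 0.86 within groups), and on the right they scatter more (0.29, but 0.69 within groups).

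Within the block of mature B cell genes, the balance between members differed in BMAd-Pnpla2-/- CR samples. Cd22 stood at 1.40, 1.66 and 1.49 reads per read of Ms4a1 there and at 1.89 to 2.51 in the other 11 samples. For Fcmr the ratio was 0.771, 0.910 and 0.819 against 0.992 to 1.48. Over Ms4a1 the ranges did not overlap for these 2 genes of 7, as for 0.102% of all tested genes in that direction and, with 0 of 7, for 0.034% in the other. Genes that vary apart from Ms4a1 have wide ratios, so that few of all genes could separate. Fcer2a had ratios of 0.447, 0.783 and 0.542 against 0.726 to 1.16, where replicate 2 of that group overlapped with replicate 1 of BMAd-Pnpla2+/+ CR. Counted on the reverse strand, where Gm29439 takes no Cd22 reads, the ratio of Cd22 was 1.60 to 1.80 against 2.15 to 2.89.

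Relative to Cr2, the reads of Cd22, Fcer2a and Fcmr were lower in every BMAd-Pnpla2-/- CR sample than in all 11 others, which held for 0.226% of all tested genes. Here too, genes that vary apart from Cr2 have wide ratios, so that few of all genes could separate. Cd22 gave 3.58 to 4.05 against 5.33 to 8.89, Fcer2a 1.24 to 1.91 against 2.26 to 4.15, and Fcmr 1.97 to 2.22 against 3.07 to 4.90. Ms4a1 over Cr2, at 2.41 to 2.77 against 2.66 to 4.63, overlapped. The 18 genes lower relative to Ms4a1 included Cd79a and Cd79b, the signalling chains of the B cell receptor, the kinase gene Blk, the B lineage transcription factor Pax5, and H2-Oa and Srpk3, both near Cd22 in pattern, and 0 were among the 16 other plasma cell or 10 T cell genes. The ratios, and Pax5 among the genes named, were chosen after the values had been seen. They carry no test, and library kind and group cannot be told apart in them.

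**Figure D5:**
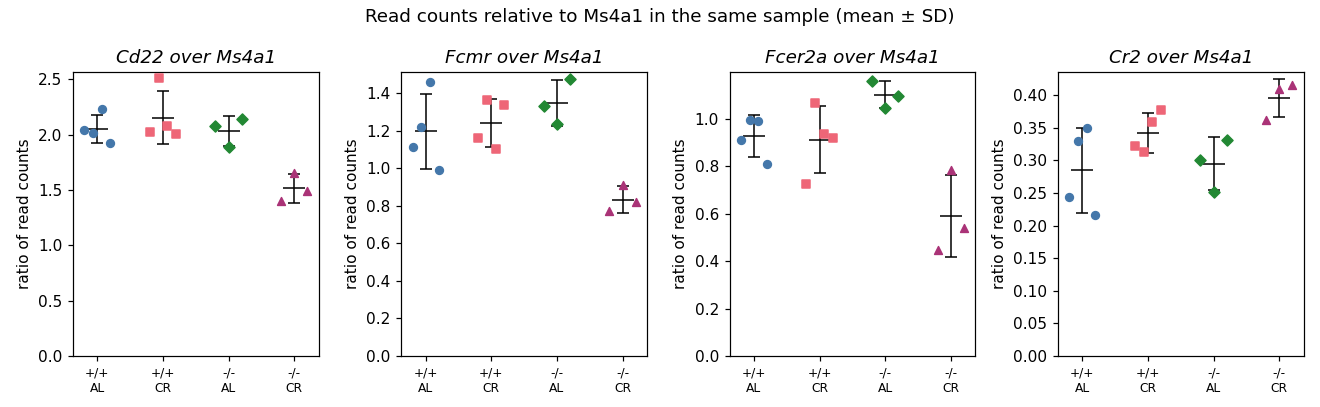
Read counts of Cd22, Fcmr, Fcer2a and Cr2 divided by those of Ms4a1 in the same sample, by group; points are samples and the bar is the mean ± SD. The 3 BMAd-Pnpla2-/- CR samples lie below all others for Cd22 (1.40 to 1.66) and Fcmr (0.771 to 0.910).

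Further genes of the B lineage were read as lists, and the background for their counts is the share of all tested genes called in each direction by edgeR. With CR that share was 10.9% lower and 15.1% higher in BMAd-Pnpla2+/+ mice, and 5.57% lower and 6.04% higher in BMAd-Pnpla2-/- mice. Of 23 other mature B cell genes, 4 fell and 1 rose with CR in BMAd-Pnpla2+/+ mice, with a median log2 fold change of -0.38, and 3 fell in BMAd-Pnpla2-/- mice, with a median of -0.57. Spib, a transcription factor of B cells and plasmacytoid dendritic cells, fell from 170 ± 109 to 47.5 ± 6.78 CPM (log2 fold change -1.84, SE 0.41, adjusted p = 0.00855 by edgeR). Cd72, a coreceptor, and Fcrla, an intracellular Fc receptor-like protein, fell by 1.73 and 1.54 on the log2 scale, and all 3 fell in BMAd-Pnpla2-/- mice as well (by 2.02, 1.96 and 1.81). The fourth, Bcl11a, a transcription factor named after its value was seen, fell by 0.55. Btla, an inhibitory receptor of B and T cells, rose from 47.3 ± 16.7 to 111 ± 4.68 CPM (log2 fold change 1.23, SE 0.26, adjusted p = 0.00698 by edgeR). Without replicate 2 of BMAd-Pnpla2+/+ AL, the count of falling genes was 13 and 11 in the same order. For BMAd-Pnpla2-/- mice it was 1 without replicate 1 of BMAd-Pnpla2-/- AL or without any 1 of the 3 BMAd-Pnpla2-/- CR replicates, and 5 to 13 with RLE scaling, DESeq2, the deposited matrix, reverse-strand counts or only the groups compared.

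Pro-B and pre-B cell genes, the makers of new B cells, fell far more than the mature genes. In each genotype 9 of 10 fell, with medians of -4.45 and -4.26 on the log2 scale. Rag1, which cuts the immunoglobulin genes for rearrangement, went from 53.1 ± 31.6 to 0.460 ± 0.327 CPM in BMAd-Pnpla2+/+ mice (log2 fold change -6.83, SE 0.61, adjusted p = 8.97e-05 by edgeR). Igll1, a part of the pre-B cell receptor, fell by 6.45, and Rag2, with 3 counts as the floor, was at least 28.3-fold lower. Among the 8 mature B cell and plasma cell genes, the lowest log2 fold change with CR was -0.91, that of Fcer2a.

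Of 16 other plasma cell genes, Prdm1, the transcription factor Blimp-1 that drives plasma cell formation, rose in BMAd-Pnpla2+/+ mice (log2 fold change 0.88, SE 0.22, adjusted p = 0.0135 by edgeR), and Slamf7 and Sec11c fell by 1.01 and 0.47. With the deletion, 1 of the 16 fell, Slamf7, by 1.13, and that count was 0 without replicate 1 or 3 of BMAd-Pnpla2-/- AL or any 1 of the BMAd-Pnpla2-/- CR replicates, up to 3 without other samples, and up to 4 under other processing. The 12 immunoglobulin constant genes had 0 called in both genotypes by edgeR, with 0 and 1 at an unadjusted p under 0.05 and 0 and 1 called by DESeq2. Among 5 BAFF and APRIL ligands and receptors, Tnfrsf17 included, 1 rose and 1 fell in BMAd-Pnpla2+/+ mice. Tnfsf13b, which encodes BAFF, fell from 22.9 ± 1.19 to 10.05 ± 2.22 CPM in BMAd-Pnpla2+/+ mice (log2 fold change -1.19, SE 0.16, adjusted p = 0.000949 by edgeR) and by 1.16 in BMAd-Pnpla2-/- mice. Tnfsf13, which encodes APRIL, rose by 0.71 in BMAd-Pnpla2+/+ mice (SE 0.23, adjusted p = 0.0383 by edgeR), a call that was lost in 9 of the 14 fits with 1 sample left out, without the filter, with the deposited matrix, with reverse-strand counts and with only the groups compared. Tnfrsf17, the receptor of both, had 0.08 in the same comparison.

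Coreceptor and signalling genes of the B cell receptor, a list that holds Cd22 and Cr2, fell in 11 of 20 cases in BMAd-Pnpla2+/+ and 6 of 20 in BMAd-Pnpla2-/- mice, led by Ifitm1, Blnk and Ptpn6 at -1.01, -0.76 and -0.56 in the former. The first count was 7, 7 and 6 without BMAd-Pnpla2+/+ AL replicate 4, CR replicate 2 or CR replicate 3. The second was 11 without BMAd-Pnpla2+/+ AL replicate 2, 2 without replicate 1 or 3 of BMAd-Pnpla2-/- AL or replicate 2 of BMAd-Pnpla2-/- CR, and 3 without replicate 3 of BMAd-Pnpla2-/- CR. With only the groups compared, the counts were 7 and 12. Several of these genes are shared with myeloid cells. Of 6 germinal centre genes, 0 were called in BMAd-Pnpla2+/+ mice by edgeR, with 4 at an unadjusted p under 0.05 and 2 called by DESeq2, and 1 fell in BMAd-Pnpla2-/- mice, Bcl6, the regulator of germinal centre B cells, by 0.47. Bcl6 was named after its value was seen, and its call was lost without replicate 1 or 3 of BMAd-Pnpla2-/- AL or replicate 2 or 3 of BMAd-Pnpla2-/- CR, and with total counts alone.

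Markers of other cells moved with CR too. Adipocyte genes rose in 8 of 8 cases in BMAd-Pnpla2+/+ and 7 of 8 in BMAd-Pnpla2-/- mice, Lep by 3.20, Adipoq by 2.27 and Plin1 by 2.11 in the former, and their summed level was 712 to 1827 CPM in the AL and 1900 to 4811 CPM in the CR samples. Fibroblastic genes rose in 6 of 9 cases in BMAd-Pnpla2+/+ mice, Col1a1 by 1.92, Col3a1 by 1.46 and Col1a2 by 1.45, and in 0 in BMAd-Pnpla2-/- mice by edgeR, with 3 at an unadjusted p under 0.05 and 1 by DESeq2. The count of 6 was 1, 2 and 1 without AL replicate 3, AL replicate 4 or CR replicate 2 of BMAd-Pnpla2+/+ mice, and 1 with no filter on low counts, where the 7 adipocyte genes of BMAd-Pnpla2-/- mice became 2. T cell genes rose in 7 of 10 and 4 of 10 cases, Cd8b1 by 1.61, Cd8a by 1.37 and Cd3e by 1.13 in BMAd-Pnpla2+/+ mice. In BMAd-Pnpla2-/- mice the 4 were Cd3e, Cd8a, Cd8b1 and, named after its value was seen, Trbc2. Without replicate 1 or 3 of BMAd-Pnpla2-/- AL or replicate 2 or 3 of BMAd-Pnpla2-/- CR, the count of T cell genes was 0 there and that of adipocyte genes 1, 1, 3 and 1. Neutrophil genes fell in 7 of 10 cases in BMAd-Pnpla2+/+ mice, S100a9, Ltf and S100a8 by 1.07, 0.998 and 0.96, and in 0 in BMAd-Pnpla2-/- mice by edgeR, with 4 at an unadjusted p under 0.05 and 3 by DESeq2. Of 8 plasmacytoid dendritic cell genes, Klk1 and Cox6a2 fell in BMAd-Pnpla2+/+ mice, by 1.62 and 1.28, a count of 1 in most fits with 1 sample left out and with no filter, only the groups compared or the replicate block, and 0 in BMAd-Pnpla2-/- mice by edgeR, with 3 at an unadjusted p under 0.05 and 3 by DESeq2. Of 8 erythroid genes, edgeR called 0 in either genotype, with 1 and 0 at an unadjusted p under 0.05 and 1 and 0 by DESeq2, and the count was 3 in BMAd-Pnpla2+/+ mice without CR replicate 4 and 1 without CR replicate 1. The part of these shifts in the members' values was not tested.

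The markers of follicular dendritic and lymphoid stromal cells bear on Cr2, which those cells also make. Of 12 in the list, 10 passed the filter; Ccl21a and Coch did not and were at or near 0, with at most 1.03 CPM in a sample. In BMAd-Pnpla2+/+ mice 4 rose and 1 fell. In BMAd-Pnpla2-/- mice 1 rose and 2 fell (Cxcl13, and Clu and Icam1), each 0 without replicate 1 or 3 of BMAd-Pnpla2-/- AL or replicate 2 or 3 of BMAd-Pnpla2-/- CR. The count that rose was also 0 with no filter, and the count that fell also 0 without replicate 1 of BMAd-Pnpla2-/- CR and with total counts alone. Cxcl13, the chemokine that draws B cells into follicles, went from 0.305 ± 0.391 to 13.9 ± 9.23 CPM in BMAd-Pnpla2+/+ mice (log2 fold change 5.47, SE 0.90, adjusted p = 0.00258 by edgeR) and rose by 3.87 in BMAd-Pnpla2-/- mice. Madcam1 went from 0.406 ± 0.385 to 10.6 ± 2.86 CPM (log2 fold change 4.71, SE 0.54, adjusted p = 0.000532 by edgeR) and had 1.09 in BMAd-Pnpla2-/- mice, with an adjusted p of 0.210. Mfge8 and Vcam1 rose by 1.05 and 0.70, and Clu fell by 0.38. Vcam1 and Icam1, adhesion molecules, were named after their values were seen. Over the 14 samples, Cr2 had r of 0.57 with the sum of this list, 0.66 with that of the T cell genes and 0.51 with that of the other mature B cell genes. Ms4a1, Cd22, Fcer2a and Fcmr had 0.17 to 0.36 with the sum of this list and 0.38 to 0.55 with that of the T cell genes. Which cells the Cr2 RNA came from was not tested. The count of 4 was 2 without BMAd-Pnpla2+/+ AL replicate 3 or CR replicate 3, and Clu was not called without AL replicate 2 or CR replicate 3, or with only the groups compared.

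Between genotypes, and in the difference of responses, 0 of the 145 tested genes of all these lists were called by edgeR. An unadjusted p under 0.05 was found for 7 with AL, 22 with CR and 10 for the difference. Of all tested genes, 3.96%, 23.2% and 10.4% had such a p in the same order. DESeq2 called 0, 7 and 1 of 147 list genes. Over all genes it called 17 of 25833, 1558 of 13112 and 42 of 17127.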

How the data were processed

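RNA-seq of marrow plugs gave 14 libraries in 4 groups of genotype and diet, grouped by their labels. The authors aligned reads with STAR to mm10 and deposited, per sample, raw counts for 55401 genes counted without strand and on either strand, and a matrix of counts. The submitters' processing notes also name FastQC 0.11.9 and DESeq2. The counts without strand were used, since the deposited matrix holds reverse-strand counts for 11 samples and unstranded counts for the 3 BMAd-Pnpla2-/- CR samples. No total or other row without a gene entered the tests.

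edgeR 4.0.16 (R 4.3.3, limma 3.58.1) fitted 1 robust quasi-likelihood model of 4 group means to 17671 genes kept by filterByExpr, with TMM scaling and Benjamini-Hochberg adjustment; a call is an adjusted p under 0.05, and tests are two-sided. CPM use TMM-scaled totals, and log2 CPM a prior count of 2. Intervals are 95% intervals of the fit. Samples held 18898324 to 21665553 gene counts, which leaves counting error small except for Tnfrsf17. On simulated counts with 200 of 17671 genes changed 4-fold, edgeR found 177 for CR in BMAd-Pnpla2+/+ mice, and 167 for CR in those with the deletion. The simulated samples had no difference in library kind. Smaller changes, such as those of the 8 genes, were not simulated, so these counts do not measure detection for them.

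The 8 genes, the gene lists and the comparisons were chosen with earlier results of these data known. Named by rule were the 8 genes, the 3 most and least changed called genes of each list with CR in BMAd-Pnpla2+/+ mice, the 3 genes most like each member, and Pnpla2. The lists hold other mature B cell, other plasma cell, BAFF and APRIL, B cell receptor, germinal centre, immunoglobulin constant, pro-B and pre-B, follicular dendritic and lymphoid stromal, fibroblastic, adipocyte, T cell, plasmacytoid dendritic, neutrophil and erythroid genes. Alternatives were other scaling, no filter, DESeq2 1.42.0, the deposited matrix, reverse-strand counts, only the groups compared, the replicate number as a block and each sample left out. Tables were made in Python 3.11.15 with pandas 2.3.3.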

Additional observations from a re-analysis of the deposited data

Results flagged for a closer look

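Jchain in replicate 3 of BMAd-Pnpla2+/+ CR stood far from the other 3 samples of its group. It had 2974 CPM against 951 to 1245, and its gap to the nearest sample was 0.855 of the group's range, above Dixon's critical value for 4 samples. This was the 1 flag among 16 groups of 4 samples examined, where chance flags about 1 in 20. Tnfrsf17 was highest in that library as well, at 3.38 CPM.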

How the results depend on the processing

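None of the 8 genes was called by edgeR under any alternative scaling, filter, counting or choice of samples other than the leaving out of samples, and DESeq2 called 1, Sdc1 with CR in BMAd-Pnpla2+/+ mice (0.68). With 1 sample left out, 0 to 1 of the 8 were called there and 0 in the other 4 comparisons. The labels do not say what the replicate numbers mark, and samples were not taken as pairs. Same-numbered samples had correlations of -0.21 to 0.28 in their deviations from group means, with 5 of 13 over 0.1. Of 14 samples, 6 lay closest to their own number. These values do not settle whether the numbers mark a litter or batch. With the replicate number as a block, 0 of the 8 were called in each comparison, and 4253 and 1831 of all genes with CR in BMAd-Pnpla2+/+ and BMAd-Pnpla2-/- mice.

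Since 0 of the 8 genes passed the threshold in the main fit, every sign that turned belonged to a value short of it. Of 312 values of the 8 genes without a sample left out, 6 turned. With total counts alone these were Ms4a1 with CR in BMAd-Pnpla2-/- mice (0.050) and Jchain between genotypes with AL (-0.0035). With the replicate block they were Ms4a1 between genotypes with CR (0.019), and Jchain (-0.062) and Tnfrsf17 (-0.027) between genotypes with AL. With the deposited matrix it was Cr2 in the difference of responses (0.0028). The cause was not tested.

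With samples left out, 46 of 560 values turned. For CR in BMAd-Pnpla2+/+ mice the ranges were -0.16 to 0.40 for Ms4a1, -0.082 to 0.44 for Cd22, -0.13 to 0.34 for Fcer2a, -0.031 to 0.41 for Fcmr, -0.20 to 0.53 for Jchain and -0.14 to 0.24 for Tnfrsf17. For CR in BMAd-Pnpla2-/- mice they were -0.43 to 0.22 for Ms4a1, -0.11 to 0.43 for Jchain and -0.36 to 0.12 for Tnfrsf17. Between genotypes with AL they were -0.25 to 0.32 for Ms4a1, -0.26 to 0.26 for Cd22, -0.067 to 0.32 for Cr2, -0.020 to 0.42 for Fcmr, -0.39 to 0.036 for Sdc1, -0.19 to 0.26 for Jchain and -0.089 to 0.21 for Tnfrsf17. With CR they were -0.51 to 0.14 for Ms4a1, -0.32 to 0.41 for Cr2, -0.42 to 0.34 for Jchain and -0.36 to 0.075 for Tnfrsf17. In the difference of responses they were -0.56 to 0.13 for Ms4a1, -0.51 to 0.22 for Cr2, -0.44 to 0.049 for Sdc1, -0.45 to 0.32 for Jchain and -0.45 to 0.033 for Tnfrsf17. Fcer2a and Fcmr kept values below 0 for CR in BMAd-Pnpla2-/- mice in all 14 fits, -1.18 to -0.56 and -1.07 to -0.42.

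Over all genes, calls between genotypes with CR were 2, but 1558 with DESeq2, 2451 with the deposited matrix, 3432 with reverse-strand counts, 111 without a filter, 8 with total counts alone, 0 with only the groups compared and 0 to 2112 with 1 sample left out, the highest without BMAd-Pnpla2+/+ CR replicate 4. With AL they were 0 and 17 with DESeq2. For the difference of responses they were 0, with 42 by DESeq2, 678 from the matrix and 1377 from reverse-strand counts. With CR in BMAd-Pnpla2-/- mice they were 2052, with 3898, 4824 and, with samples left out, 243 to 2435. In BMAd-Pnpla2+/+ mice they were 4601, with 2742 from only the groups compared and 2228 to 6029 with samples left out. Counts of called list genes moved by over 1.5 times in 65 of 448 values without and 102 of 784 values with a sample left out. With 3 or 4 pooled samples a group, the intervals of the 8 genes span folds from 0.205 to 2.44.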
